A study of Mus musculus with 45 samples.

Results

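The genes described here encode the mitochondrial ribosomal proteins. They were taken as every protein-coding gene whose symbol begins with *Mrpl* or *Mrps* and goes on with a number, which gave 78 members (49 *Mrpl* and 29 *Mrps* symbols) among the 55385 genes of the deposited tables, and 5 pseudogenes with such symbols were left out. All 78 members had enough counts to be tested at every stage. Their RNA was measured in 18 RNA-seq libraries from mouse embryos and ES cells in which GABPA, a transcription factor of the ETS family, could be degraded. The question was how these genes respond at each stage when GABPA is lost.

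In all groups, controls included, both *Gabpa* alleles carry a degron tag (genotype *Gabpa*-dTAG/dTAG), and dTAG13, a small molecule that recruits a ubiquitin ligase to the tag, removes the protein. Late two-cell embryos were kept with 1 μM dTAG13 or with its solvent DMSO from 6 to 30 h post fertilization (hpf), with 3 libraries per group. Morulae, treated with 1 μM dTAG13 from the four-cell stage, the inner cell mass (ICM) labelled E4.5, treated with 1 μM from 84 hpf, and ES cells in 2i medium and LIF (2iES), treated with 0.5 μM for 24 h, had 2 libraries per group. The embryos came from oocytes of superovulated females of 7 to 8 weeks fertilized in vitro, from a knock-in line crossed to C57BL/6J. The ICM is a mixture of epiblast (EPI) and primitive endoderm (PrE) cells left after the trophectoderm (TE) was removed by immunosurgery, and the 2iES line derives from E14 cells by picking single clones. The study describes its RNA-seq replicates as independent biological ones, while the sample labels do not name the litters or cultures behind them, and p-values measure the spread between these libraries.

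Mitochondrial ribosomes sit in the mitochondrial matrix and translate the few messenger RNAs of mitochondrial DNA, all of which encode subunits of the oxidative phosphorylation complexes. Their RNAs are transcribed from mitochondrial DNA, whereas all of their proteins are encoded in the nucleus, translated in the cytosol and imported. Many of these proteins have a counterpart in bacterial ribosomes, and others exist only in mitochondria. GABPA is known in many cell types as an activator of nuclear genes for mitochondrial proteins, and ETS factors bind DNA around a GGAA core. The preimplantation embryo starts with mitochondria and transcripts of the oocyte and switches on most of its own genes in the two-cell stage.

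**Figure D1:**
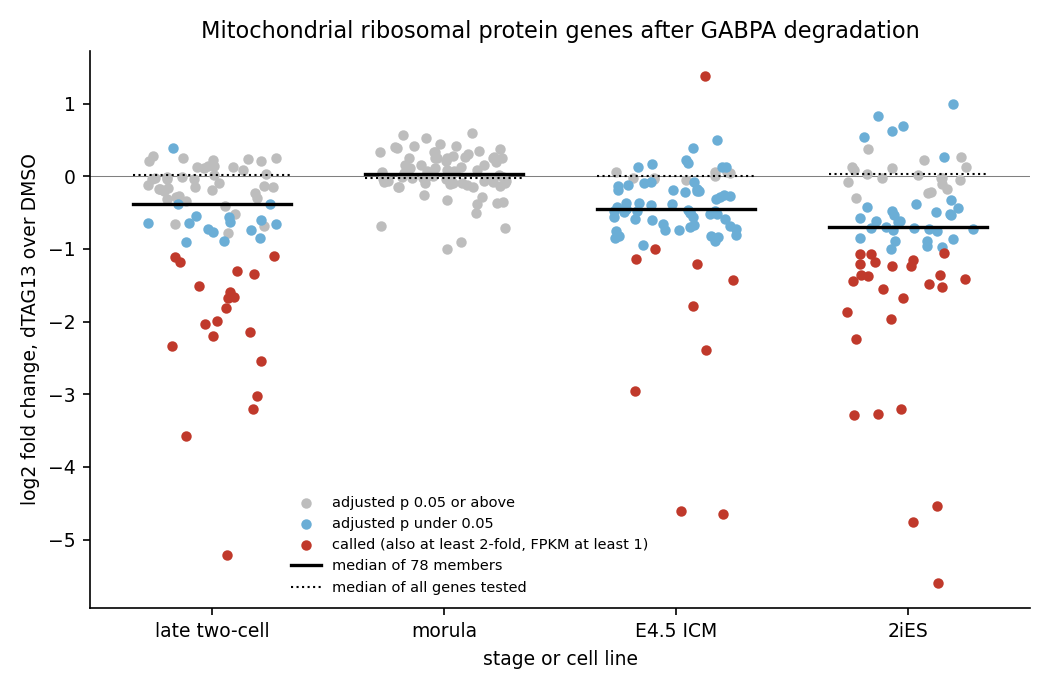
Log2 fold change of each of the 78 members (dTAG13 over DMSO) at 4 stages, with points coloured by the edgeR test, solid bars for the median of the members and dotted bars for the median of all genes tested. The members' medians were -0.38 at the late two-cell stage, 0.03 in morulae, -0.45 in the ICM and -0.70 in 2iES cells.

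Expected counts summed to between 9457933 (a morula library) and 27660132 (a 2iES library) per library. ICM replicates were closer to each other than replicates elsewhere: the median gene's chi-square between them was 1.63 (DMSO) and 1.69 (dTAG13) times that of sampling alone, against 2.86 to 16.1 times in the other groups. Small differences therefore pass the test in the ICM, where 38.5% of all genes tested were lower and 38.4% higher at an adjusted p under 0.05. *Gabpa* RNA does not report the loss of the protein, and its mean level in TPM, a share of the library per transcript length, was 103 (DMSO) and 153 (dTAG13) in late two-cell embryos, 7.40 and 13.2 in morulae, 10.6 and 27.4 in the ICM and 6.57 and 11.2 in 2iES cells. Late two-cell libraries held transcripts of all 5 two-cell markers, and ICM and 2iES libraries those of all 8 markers of ICM, EPI and naive ES cells. The 7 TE markers summed to 66.8 to 72.6 TPM in the ICM with DMSO and to 771 to 773 TPM with dTAG13, and all 7 passed the test as higher. The 5 markers of PrE summed there to 221 to 230 TPM with DMSO and 295 to 297 TPM with dTAG13, with 3 higher and 2 lower. The 6 maternal transcripts summed to 1354 to 1365 TPM with DMSO and to 1721 to 1950 TPM with dTAG13 in late two-cell embryos, where 1 of them, *Oosp1*, passed as higher. The 4 cumulus-cell markers summed there to 3.46 to 5.41 TPM with DMSO and 6.44 to 11.4 TPM with dTAG13, with 1 higher. In 2iES cells these 4 summed to 0.52 to 0.74 TPM with DMSO and 8.22 to 8.58 TPM with dTAG13, with 2 higher. In 2iES cells 3 of the 8 naive markers were lower and 1 higher, with sums of 411.7 to 412.5 TPM with DMSO and 265 to 277 TPM with dTAG13. The part of these markers in the results below was not tested. In such bulk libraries, fewer cells of a type and less RNA per cell cannot be told apart. For its ICM RNA-seq the study chose the mid-blastocyst stage, where it reports no difference yet in EPI cell number between the treatments.

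The promoters of the members that fell most widely are shown first. At the late two-cell stage, in the ICM and in 2iES cells, 7 members were called lower at all 3 (an adjusted p under 0.05, a change of 2-fold or more, and a level of 1 FPKM or more on average in one of the groups), and these are *Mrpl27*, *Mrpl33*, *Mrpl52*, *Mrpl53*, *Mrpl58*, *Mrps21* and *Mrps34*. RefSeq windows on GRCm38.p6, from 250 bases before to 50 bases after the start, were at hand for 69 of the 78 members and for 6 of these 7; those without are *Mrpl4*, *Mrpl13*, *Mrpl15*, *Mrpl19*, *Mrpl38*, *Mrpl54*, *Mrps28*, *Mrps34* and *Mrps35*. The windows of the 6 are printed 5′ to 3′ on the gene's strand, with that of *Mrps6*, the only member called higher at any stage (in the ICM), for contrast. Capitals mark CCGGAAG, an ETS motif, or its reverse complement. The windows are chr11:94653541-94653840 (+) for *Mrpl27*, chr5:31613701-31614000 (+) for *Mrpl33*, chr14:54426659-54426958 (+) for *Mrpl52*, chr6:83108858-83109157 (+) for *Mrpl53*, chr11:115403502-115403801 (+) for *Mrpl58*, chr3:95871465-95871764 (-) for *Mrps21* and chr16:92058086-92058385 (+) for *Mrps6*.
Mrpl27: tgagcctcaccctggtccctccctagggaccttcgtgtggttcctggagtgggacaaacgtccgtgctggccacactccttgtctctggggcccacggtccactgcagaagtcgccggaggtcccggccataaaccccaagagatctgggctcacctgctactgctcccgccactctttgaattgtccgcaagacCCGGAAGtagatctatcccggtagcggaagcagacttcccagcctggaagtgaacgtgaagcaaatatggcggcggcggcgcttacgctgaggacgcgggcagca
Mrpl33: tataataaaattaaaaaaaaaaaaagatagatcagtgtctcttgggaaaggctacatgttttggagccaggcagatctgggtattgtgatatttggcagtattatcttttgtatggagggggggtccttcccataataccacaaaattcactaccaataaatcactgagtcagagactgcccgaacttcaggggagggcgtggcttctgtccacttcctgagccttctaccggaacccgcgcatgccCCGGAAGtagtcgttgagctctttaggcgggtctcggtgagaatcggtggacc
Mrpl52: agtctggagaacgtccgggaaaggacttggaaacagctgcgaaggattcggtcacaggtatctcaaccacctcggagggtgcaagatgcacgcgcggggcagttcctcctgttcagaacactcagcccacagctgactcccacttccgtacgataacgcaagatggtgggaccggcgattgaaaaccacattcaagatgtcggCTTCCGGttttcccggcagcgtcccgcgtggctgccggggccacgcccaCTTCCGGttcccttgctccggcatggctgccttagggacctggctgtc
Mrpl53: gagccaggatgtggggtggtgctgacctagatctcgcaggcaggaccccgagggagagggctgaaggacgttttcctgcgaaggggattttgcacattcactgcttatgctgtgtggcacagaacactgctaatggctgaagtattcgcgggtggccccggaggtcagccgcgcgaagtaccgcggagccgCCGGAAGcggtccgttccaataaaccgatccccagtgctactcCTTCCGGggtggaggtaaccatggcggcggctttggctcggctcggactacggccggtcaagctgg
Mrpl58: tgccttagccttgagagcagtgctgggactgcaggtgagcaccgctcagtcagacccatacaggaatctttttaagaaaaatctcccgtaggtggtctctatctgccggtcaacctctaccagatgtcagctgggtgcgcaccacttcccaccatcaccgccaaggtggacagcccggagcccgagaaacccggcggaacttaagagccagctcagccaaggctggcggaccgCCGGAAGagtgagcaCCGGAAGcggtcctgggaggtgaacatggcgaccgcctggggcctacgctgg
Mrps21: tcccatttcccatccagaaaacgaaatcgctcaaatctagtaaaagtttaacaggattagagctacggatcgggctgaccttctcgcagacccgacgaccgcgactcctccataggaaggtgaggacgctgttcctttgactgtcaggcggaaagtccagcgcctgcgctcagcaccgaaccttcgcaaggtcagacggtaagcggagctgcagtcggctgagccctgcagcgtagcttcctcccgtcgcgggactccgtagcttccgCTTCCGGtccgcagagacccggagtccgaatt
Mrps6: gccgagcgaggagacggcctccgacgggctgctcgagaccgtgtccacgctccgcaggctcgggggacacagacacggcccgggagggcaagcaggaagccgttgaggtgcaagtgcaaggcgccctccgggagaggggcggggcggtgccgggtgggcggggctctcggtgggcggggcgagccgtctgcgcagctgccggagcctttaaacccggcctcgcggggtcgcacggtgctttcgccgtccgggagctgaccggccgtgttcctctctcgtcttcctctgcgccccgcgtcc
Counting the start base as 0, the matches begin at -55 in *Mrpl27*, -3 in *Mrpl33*, -47 and 2 in *Mrpl52*, -59 and -16 in *Mrpl53*, -17 and -2 in *Mrpl58* and 18 in *Mrps21*. The window of *Mrps6* holds no match. For *Mrpl33* the RefSeq start lies inside the gene model used for the counts, which begins further upstream.

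All 6 windows of the members called lower at all 3 stages held CCGGAAG, searched on both strands, against 26 of all 69 members with a window and 8.86% of all 32851 windows (9.93% of genes). Of the members called lower at 2 of these stages, 5 of 7 windows held it, of those called at 1 stage 7 of 16, and of those called at none 8 of 40. In 23 of the 26 members a match began within 100 bases of the start. The longer CCGGAAGTG, which contains the first motif, was found in 4 members and 2.03% of all windows. GCATGCGC, a motif of the factor NRF1, was found in 8 members and 2.71% of windows, and AAGATGGCG, a motif of YY1, in 8 members and 1.40%. A match is no proof of binding, and the absence of a match says only that these letters are not in the window.

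Many members fell in late two-cell embryos: 35 were lower and 1 higher with dTAG13 at an adjusted p under 0.05 (edgeR), against 7.24% of all genes lower and 1.32% higher. Of these, 20 members were called lower and none higher, against 3.63% and 0.476% of all genes. Cytosolic ribosomal proteins build the other ribosome of the cell. At an adjusted p under 0.05, 19 of their 76 genes were lower and 2 higher, to be set beside the 35 and 1 of the 78 members. The members' median log2 fold change was -0.38, beside 0.02 over all genes tested. In 44 members all dTAG13 libraries lay below all DMSO libraries in TPM, and in 9 all lay above, against 12.8% and 14.5% of all genes tested. The 1 member that passed as higher was *Mrpl45*, which sits near the exit of the nascent chain, with a log2 change of 0.38 (SE 0.10, adjusted p = 0.044 by edgeR). It did not pass once any 1 of the 6 libraries was left out.

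*Mrpl33*, a small protein of the large subunit with a bacterial counterpart, fell most. It was at 95.2, 80.7 and 83.2 TPM with DMSO and at 2.36, 1.89 and 2.35 TPM with dTAG13, a 37.1-fold fall (log2 change -5.21, SE 0.23). *Mrps34*, a protein of the small subunit found only in mitochondria, was at 26.1, 29.0 and 19.7 TPM and at 1.75, 1.68 and 3.23 TPM, a log2 change of -3.57. *Mrps18a* was at 38.8, 42.1 and 43.8 TPM and at 4.54, 3.81 and 5.48 TPM, a log2 change of -3.21. None of these groups overlap. *Mrps18a* belongs to the large subunit in spite of its symbol and has the small-subunit relatives *Mrps18c* and *Mrps18b*, which fell by 1.09 and 0.54 on the log2 scale. *Mrpl53*, *Mrps35* and *Mrpl43* followed with log2 changes of -3.02, -2.54 and -2.33. *Mrpl52*, a large-subunit protein found only in mitochondria, was at 88.0, 52.7 and 66.0 TPM and at 17.8, 15.5 and 12.4 TPM, and *Mrpl58* at 69.7, 71.5 and 54.4 TPM and at 16.4, 16.8 and 19.8 TPM, again with no overlap.

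The fall was spread over both subunits. By role, 12 of 30 large-subunit members with a bacterial counterpart were lower, 9 of 21 large-subunit members found only in mitochondria were lower and 1 higher, 6 of 16 small-subunit members with a bacterial counterpart were lower, and 8 of 10 small-subunit members found only in mitochondria were lower, with median log2 changes of -0.32, -0.23, -0.35 and -1.31. Those 8 are *Mrps18b*, *Mrps22*, *Mrps26*, *Mrps27*, *Mrps31*, *Mrps33*, *Mrps34* and *Mrps35*. Of the *Mrps18* relatives, which resemble a bacterial protein in sequence, the role lists count *Mrps18c* as its counterpart and put *Mrps18a* and *Mrps18b* with the proteins found only in mitochondria. *Mrps36*, which is a subunit of the 2-oxoglutarate dehydrogenase complex and not of the ribosome, did not pass the test (log2 change 0.13). Summed over the 78 members, the level was 7790 ± 156 TPM (SD, n = 3) with DMSO and 5678 ± 45.3 with dTAG13, or 72.9% of DMSO, and the libraries of the groups did not overlap.

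In morulae no member passed the test in either direction, and none was called, where 0.205% of all genes were lower and 0.161% higher, and 0.198% were called lower and 0.154% called higher (edgeR). At an unadjusted p under 0.05 there were 9 members, against 13.6% of all genes, and DESeq2 gave 2 members lower and 0 higher, against 0.622% and 0.578%. The median log2 change was 0.03 and the summed level 14410 ± 863 TPM (SD, n = 2) with DMSO and 14230 ± 421 with dTAG13. Values are given for the 3 members with the smallest p in morulae. *Mrps21* was at 628 and 597 TPM with DMSO and at 270 and 351 TPM with dTAG13 (SE of the log2 change 0.21, adjusted p = 0.062 by edgeR). *Mrpl53* was at 185 and 209 TPM and at 89.4 and 119 TPM (log2 change -0.91, adjusted p = 0.093 by edgeR), and *Mrpl33* at 859 and 824 TPM and at 457 and 571 TPM (log2 change -0.72, adjusted p = 0.17 by edgeR). In each of the 3 the groups did not overlap. *Mrps21* passed the test with DESeq2 (adjusted p = 0.0028), as did *Mrpl53* (adjusted p = 0.015 by DESeq2), and all 3 passed without the filter on low counts. Single libraries decide these values: without DMSO replicate 2, 3 members were lower, 1 of them called, and 1 higher, and without dTAG13 replicate 2, 1 was lower and called.

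In the ICM, 60 members were lower and 9 higher at an adjusted p under 0.05, beside the 38.5% and 38.4% of all genes given above, and 9 were called lower and 1 called higher, against 13.2% and 12.1% of all genes called. Counted by calls, the members' share thus lay near that of all genes, while at an adjusted p under 0.05 most members lay on one side. For cytosolic ribosomal proteins, 46 of 76 were lower and 19 higher. The members' median log2 change was -0.45, beside 0.01 over all genes tested. The summed level was 14730 ± 62.3 TPM (SD, n = 2) with DMSO and 10980 ± 38.9 with dTAG13, or 74.5% of DMSO, and that of cytosolic ribosomal proteins 90.6%. The 8 markers of ICM, EPI and naive ES cells all passed as lower here, with sums of at least 554 TPM with DMSO and from 391.7 TPM upwards with dTAG13, beside the rise of the TE markers given above, and their part was not tested. With all 18 libraries in 1 fit, which takes the spread from every stage, 40 members were lower and 2 higher.

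*Mrps21*, a small-subunit protein with a bacterial counterpart, was at 385 and 367 TPM with DMSO and at 15.9 and 14.0 TPM with dTAG13, a 25.0-fold fall (log2 change -4.64, SE 0.08). *Mrpl53*, a large-subunit protein found only in mitochondria, was at 149 and 142 TPM and at 5.29 and 6.88 TPM, a 24.3-fold fall. *Mrpl27*, a large-subunit protein with a bacterial counterpart near the site of peptide bond formation, was at 170 and 173 TPM and at 24.0 and 21.7 TPM, a 7.73-fold fall. In all 3 members every dTAG13 library was far below both DMSO libraries. *Mrpl33*, *Mrps34*, *Mrpl52*, *Mrps33* and *Mrpl58* were also called lower, with log2 changes of -2.40, -1.79, -1.42, -1.21 and -1.14, and *Mrps16* was 2.01-fold lower. *Mrpl58* is a peptidyl-tRNA hydrolase built into the large subunit.

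*Mrps6*, a small-subunit protein with a bacterial counterpart, moved the other way. It was at 84.8 and 83.1 TPM with DMSO and at 224 and 225 TPM with dTAG13 in the ICM, a log2 change of 1.38 (SE 0.04). Among the other members that passed as higher, log2 changes were 0.50 for *Mrpl32*, 0.39 for *Mrpl23*, 0.23 for *Mrpl9*, 0.18 for *Mrpl19*, 0.17 for *Mrps17*, 0.13 for *Mrps25*, 0.12 for *Mrpl11* and 0.12 for *Mrps14*. By role, 22 of 30 large-subunit members with a bacterial counterpart were lower and 5 higher, 19 of 21 found only in mitochondria were lower and 0 higher, and in the small subunit 10 of 16 were lower and 3 higher, and 8 of 10 lower and 1 higher. *Mrps36* fell by 0.32 on the log2 scale, and *Mrps30*, a large-subunit protein in spite of its symbol, by 0.49.

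**Figure D2:**
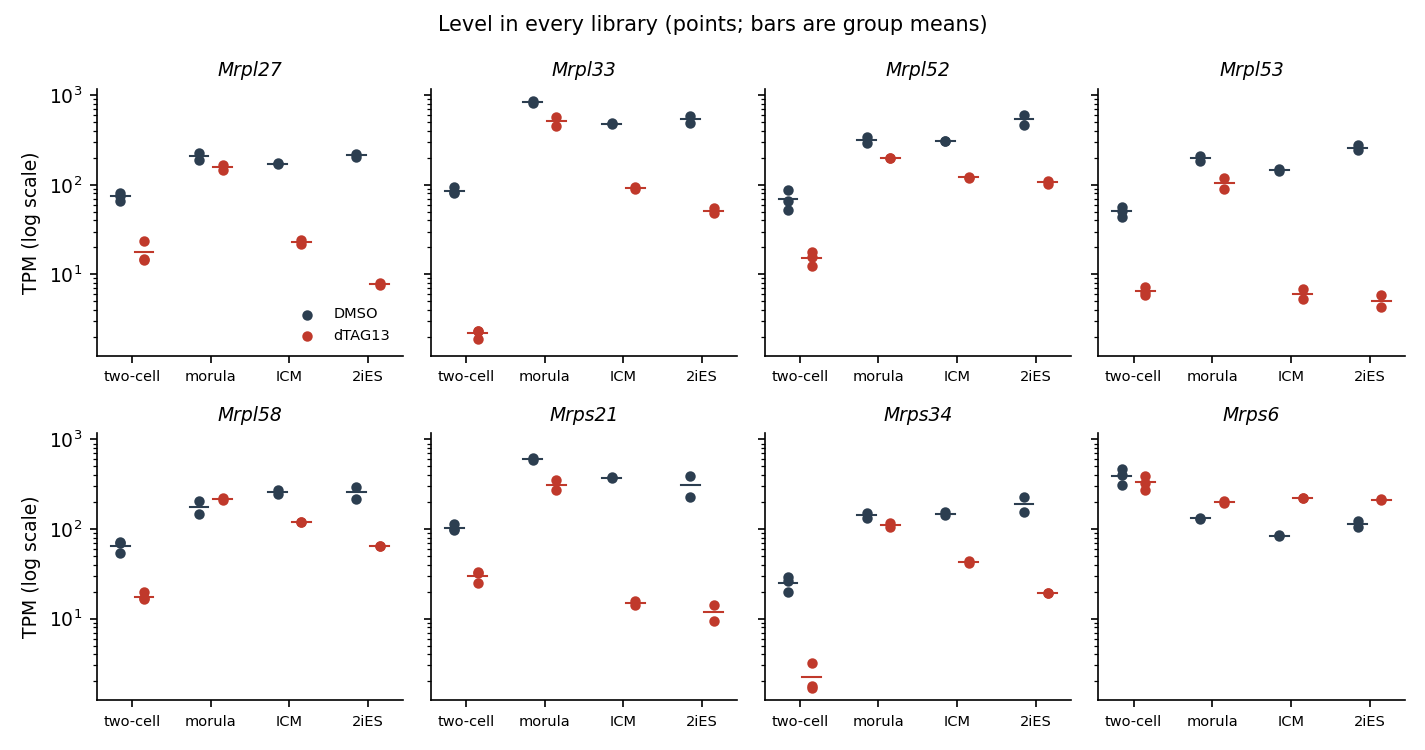
Level in TPM (log scale) in every library for the 7 members called lower at the late two-cell stage, in the ICM and in 2iES cells, and for *Mrps6*, with DMSO in dark and dTAG13 in red. In the 7 members all red points lie below all dark points at those 3 stages, and in *Mrps6* the red points lie above the dark ones in morulae, the ICM and 2iES cells.

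In 2iES cells, 53 members were lower and 6 higher at an adjusted p under 0.05, against 28.1% and 26.5% of all genes, and 26 were called lower and none higher, against 15.6% and 12.4%. The 6 higher members were *Mrps6*, *Mrps14*, *Mrpl32*, *Mrpl23*, *Mrpl1* and *Mrps25*, with log2 changes from 0.27 (*Mrps25*) upwards. Without dTAG13 replicate 1 or 2, 3 members passed as higher, and without DMSO replicate 1 or dTAG13 replicate 1, 1 was called higher. Of the cytosolic ribosomal proteins, 22 of 76 were lower and 15 higher. The members' median log2 change was -0.70, beside 0.03 over all genes tested, and the summed level was 17530 ± 927 TPM (SD, n = 2) with DMSO and 11280 ± 259 with dTAG13, or 64.3% of DMSO. The libraries of the groups did not overlap.

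*Mrpl53* was at 279 and 242 TPM with DMSO and at 4.30 and 5.87 TPM with dTAG13, a 48.2-fold fall (log2 change -5.59, SE 0.19). *Mrpl27* was at 222 and 205 TPM and at 8.09 and 7.59 TPM, a 27.2-fold fall, and *Mrps21* at 226 and 388 TPM and at 14.0 and 9.45 TPM, a 23.3-fold fall. The groups were again far apart, although the DMSO libraries of *Mrps21* differ from each other. *Mrpl33* was at 490 and 588 TPM and at 47.8 and 54.6 TPM (log2 change -3.28), *Mrpl43*, a large-subunit protein found only in mitochondria, at 108 and 84.9 TPM and at 9.03 and 9.86 TPM (-3.27), and *Mrps34* at 227 and 154 TPM and at 19.3 and 19.4 TPM (-3.20). The 3 most abundant members made up 24.3% and 24.6% of the summed level in the dTAG13 libraries, against 14.5% and 15.9% with DMSO.

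*Mrps6* was at 123 and 105 TPM with DMSO and at 210 and 217 TPM with dTAG13 in 2iES cells, just under the 2-fold limit of a call (log2 change 1.00, adjusted p = 0.00059 by edgeR). By role, 19 of 30 large-subunit members with a bacterial counterpart were lower and 3 higher, 16 of 21 found only in mitochondria were lower and 0 higher, 9 of 16 small-subunit members with a bacterial counterpart were lower and 2 higher, and 8 of 10 found only in mitochondria were lower and 1 higher, with median log2 changes of -0.57, -0.97, -0.63 and -0.82. *Mrpl12*, which is also known to bind the mitochondrial RNA polymerase, and *Mrpl44*, which has the fold of a double-strand RNase, were called lower (-1.07 and -1.56).

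**Figure D3:**
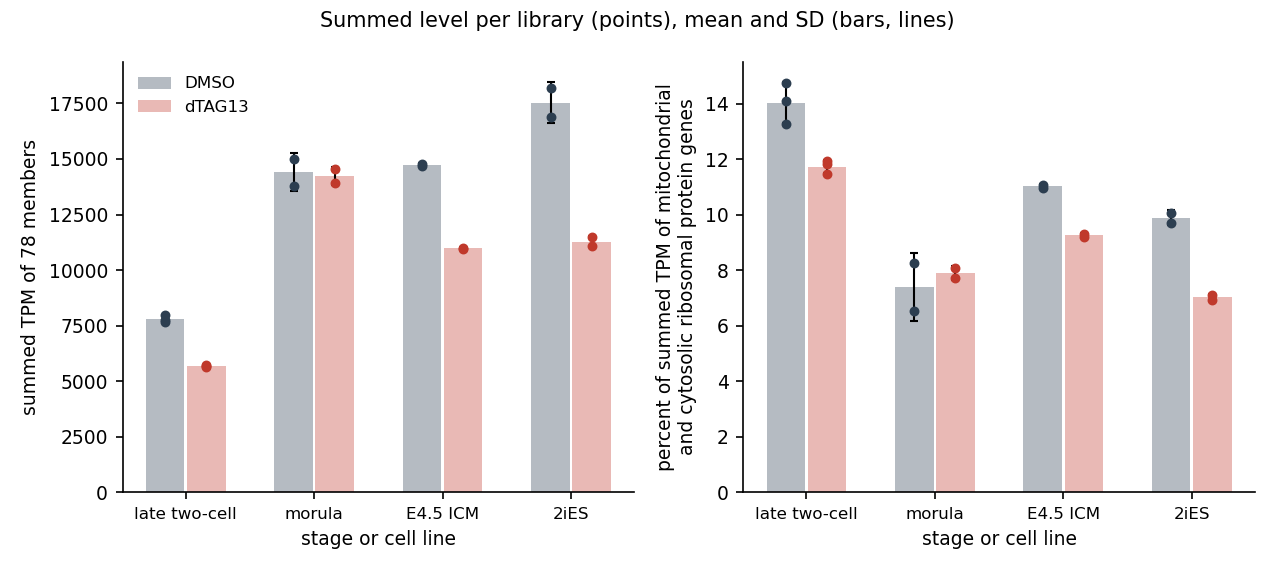
Left, summed TPM of the 78 members in every library (points) with the mean and SD per group (bars and lines); right, the same sum as a percent of the summed TPM of mitochondrial and cytosolic ribosomal protein genes. The dTAG13 points lie below the DMSO points in both panels at the late two-cell stage, in the ICM and in 2iES cells.

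Across the 3 stages at which members passed the test, 31 of the 78 were lower at all 3, against 6.38% of the 12329 genes tested at all 3. Another 18 were lower in the ICM and 2iES cells but did not pass at the late two-cell stage (16.4% of genes), and 5 passed at none (11.4% of genes), namely *Mrpl14*, *Mrpl36*, *Mrpl46*, *Mrps5* and *Mrps11*. The members lower at all 3 were *Mrpl3*, *Mrpl13*, *Mrpl16*, *Mrpl17*, *Mrpl18*, *Mrpl20*, *Mrpl21*, *Mrpl22*, *Mrpl27*, *Mrpl28*, *Mrpl33*, *Mrpl39*, *Mrpl43*, *Mrpl44*, *Mrpl51*, *Mrpl52*, *Mrpl53*, *Mrpl54*, *Mrpl58*, *Mrps2*, *Mrps7*, *Mrps10*, *Mrps16*, *Mrps18a*, *Mrps18b*, *Mrps21*, *Mrps22*, *Mrps26*, *Mrps33*, *Mrps34* and *Mrps35*. *Mrpl45* was the 1 member that passed in opposite directions, higher at the late two-cell stage and lower by 0.21 and 0.53 on the log2 scale in the ICM and 2iES cells. *Mrpl23*, *Mrpl32*, *Mrps6*, *Mrps14* and *Mrps25* did not pass in late two-cell embryos and were higher in both the ICM and 2iES cells, a pattern of 14.9% of genes. By calls, 7 members were lower at all 3 stages, 8 at 2, 18 at 1 and 45 at none, against 1.96%, 6.87%, 16.4% and 74.8% of genes. Of the 18 called at 1 stage 12 were called in 2iES cells and 6 at the late two-cell stage. Near the 2-fold limit lay *Mrps16* in the ICM (2.01-fold lower, called) and *Mrpl24* in 2iES cells (log2 change -0.997, not called). On leaving out 1 library of the stage, log2 changes ranged from -1.05 to -0.98 for *Mrps16* in the ICM and from -1.45 to -0.98 for *Mrps18a* in 2iES cells. The test was no longer passed without 1 library at the late two-cell stage for *Mrpl3*, *Mrpl17*, *Mrpl39*, *Mrpl54*, *Mrps7*, *Mrps16* and *Mrps26*, in the ICM for *Mrpl20*, and in 2iES cells, without a dTAG13 library, for *Mrpl13*, *Mrpl16*, *Mrpl22*, *Mrpl39*, *Mrpl51* and *Mrps18b*.

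Over the 78 members, the log2 changes in the ICM and in 2iES cells had a Pearson correlation of 0.88 (Spearman 0.73), those of late two-cell embryos and the ICM 0.62 (0.57), and those of late two-cell embryos and 2iES cells 0.66 (0.51). Although no member passed in morulae, their log2 changes correlated with the other stages too. The values were 0.59 (0.51) with late two-cell embryos, 0.71 (0.44) with the ICM and 0.75 (0.61) with 2iES cells. The points of these descriptions are genes and not replicates, each stage has its own DMSO libraries, and the members share exposure to their libraries' depth and composition.

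The size of the effect differed between stages in many members, tested as a difference of the dTAG13 effects in 1 fit over both stages. Such a fit gives each gene 1 spread for both stages, although the spreads differed. The biological coefficient of variation from edgeR measures the spread between replicates. Fitted for single stages, it was 0.024 (ICM), 0.159 (2iES), 0.213 (morulae) and 0.284 (late two-cell). SEs and p-values of the effect differences therefore describe a shared spread and not that of either stage. Between the late two-cell stage and morulae the effect was higher, which here means less negative, in 25 members in morulae and lower in 0, against 2.96% and 0.206% of all genes. Between morulae and the ICM it was lower in 38 members in the ICM and higher in 1, against 15.7% and 13.4%. Between morulae and 2iES cells it was lower in 45 members in 2iES cells and higher in 0, against 14.1% and 12.5%. Between the late two-cell stage and the ICM it was lower in the ICM in 13 and higher in 20 (11.3% and 11.2% of all genes), and between the late two-cell stage and 2iES cells lower in 2iES cells in 18 and higher in 15 (8.83% and 11.8%). Between the ICM and 2iES cells it was lower in 2iES cells in 34 and higher in 8 (20.1% and 21.8%). Without any 1 of the 4 ICM libraries the count of lower members was 5 or 6 against the late two-cell stage and 16 to 21 against morulae, and without ICM DMSO replicate 2 the higher count against the late two-cell stage was 13. The count of members lower in 2iES cells than in late two-cell embryos or morulae shrank without 2iES dTAG13 replicate 1. Against morulae it also shrank without replicate 2. Between the ICM and 2iES cells, 22 were lower without ICM dTAG13 replicate 2, and the higher count was 4 or 5 without any 1 ICM or 2iES dTAG13 library and 16 and 14 without 2iES DMSO replicates 1 and 2. Several of these comparisons share libraries, doses and times of treatment differ between stages, and stage cannot be told apart from collection.

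Individual members ranked the stages differently. *Mrpl33* fell most at the late two-cell stage, and its effect in the ICM was weaker by 2.81 log2 units (SE 0.21, adjusted p = 1.05e-05 by edgeR). *Mrps18a* likewise fell by 3.21 on the log2 scale at the late two-cell stage and by 0.45 in the ICM, a difference of 2.75 (SE 0.17). *Mrps21* went the other way, with -1.81 in late two-cell embryos and -4.64 in the ICM, a difference of -2.84 (SE 0.22). *Mrpl43* separated the ICM from 2iES cells, with -0.94 and -3.27, a difference of -2.31 (SE 0.15). The 5 members that passed at no stage lay between -0.21 and 0.23 at the late two-cell stage, in the ICM and in 2iES cells.

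Members with the ETS motif CCGGAAG in their window had lower median log2 changes than those without. At the late two-cell stage, 21 of the 26 members with the motif and 10 of the 43 without it were lower, with 13 and 5 called, and median log2 changes of -0.93 and -0.15. In the ICM, 24 of 26 and 28 of 43 were lower, and all 8 members called lower that had a window held the motif, with medians of -0.71 and -0.21. In 2iES cells, 23 of 26 and 23 of 43 were lower, with 14 and 8 called and medians of -1.19 and -0.52. In morulae the medians were -0.05 and 0.12, with none passing. These counts describe the windows and were given no test, and a member without the motif can carry other ETS letters. *Mrpl20* and *Mrpl44* were called lower at 2 stages without a match.

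**Figure D4:**
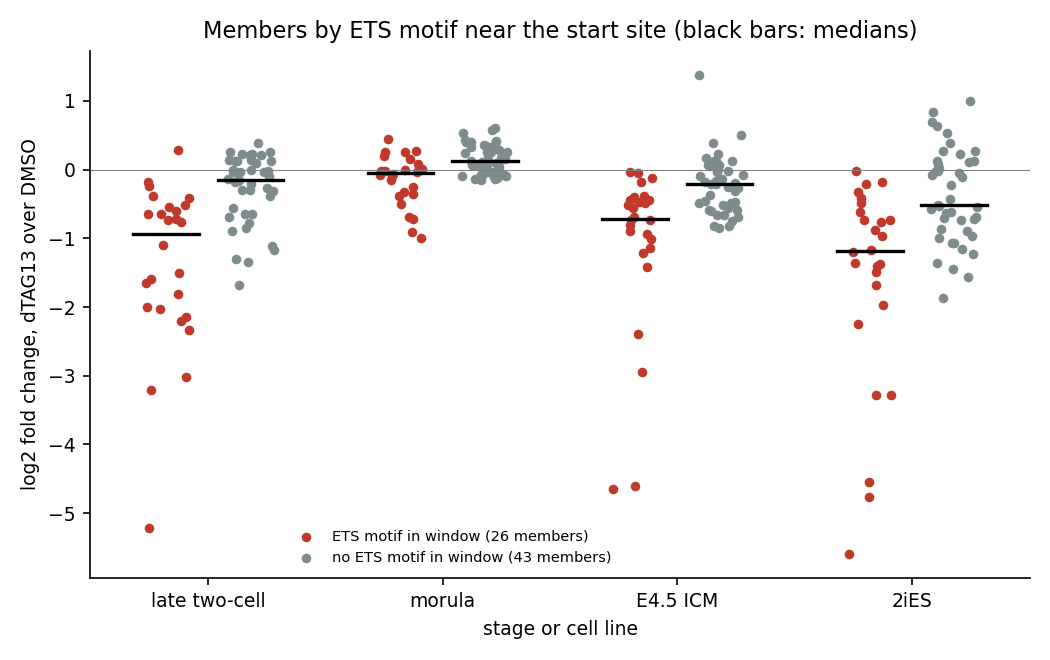
Log2 fold change (dTAG13 over DMSO) at 4 stages of the 26 members with and the 43 without CCGGAAG within the RefSeq window around the start, with black bars for medians. The medians of members with the motif lie at -0.93, -0.05, -0.71 and -1.19 from left to right, below those without.

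The library kit does not mark strand, so reads of overlapping genes can be split wrongly. Of the members' bases in exons, 88.0% in *Mrpl53* are shared with other genes, mainly *Gm42688*. The main partner lies on the other strand for *Mrps34* (77.8%, *Mapk8ip3*), *Mrps25* (69.8%, *Nr2c2*), *Mrpl19* (36.0%, *Gcfc2*), *Mrpl43* (33.4%, *Twnk*) and *Mrps18b* (30.5%, *Gm16279*). The counts of these members are uncertain to that extent. *Gm42688* was given at most a mean of 0.14 TPM in any group, far under *Mrpl53*. *Mapk8ip3* had a log2 change of -0.36 at the late two-cell stage, which did not pass, of -0.57 in the ICM and of 0.35 in 2iES cells, which did not pass, beside -3.57, -1.79 and -3.20 for *Mrps34*. *Nr2c2* had a log2 change of 0.85 in 2iES cells (adjusted p = 0.039 by edgeR), from a mean of 1.08 to 2.35 TPM, beside 0.27 for *Mrps25*, and did not pass at the other stages. *Twnk*, the mitochondrial DNA helicase, fell with *Mrpl43*, by 1.65, 0.96 and 2.38 on the log2 scale, and reads of the pair cannot be told apart where they overlap. *Gcfc2* was higher by 1.20 in 2iES cells and did not pass at the other stages. *Gm16279* was higher by 1.70 in the ICM and 1.21 in 2iES cells, beside -0.56 and -0.42 for *Mrps18b*. *Mrpl27* shares 38.9% of its 31-base words with other transcripts, mainly *Gm6304*, which had at most a mean of 0.91 TPM in any group. The members called lower at all 3 stages lie on GRCm38 at chr11:94653767-94660089 (*Mrpl27*), chr5:31596935-31664384 (*Mrpl33*), chr14:54426909-54429756 (*Mrpl52*), chr6:83109040-83109939 (*Mrpl53*), chr11:115403752-115412674 (*Mrpl58*), chr3:95862634-95871519 (*Mrps21*, minus strand) and chr17:24895116-24897502 (*Mrps34*).

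Of the 78 members, 18 start within 1000 bases of a protein-coding gene transcribed the other way. In 2iES cells 12 of these members were lower, and of their neighbours 7 were lower, 1 higher and 4 did not pass. Of all genes tested there, 28.1% were lower and 26.5% higher. In the ICM 15 members were lower, with 8 neighbours lower, 2 higher and 5 not passing, against 38.5% and 38.4% of all genes. At the late two-cell stage 6 members were lower with 1 neighbour lower and 5 not passing, against 7.24% of all genes lower. These counts leave out the neighbours of members that were not lower. Whether pairs moved together more often than other genes was not tested. *Mrps12* and *Sars2*, the mitochondrial seryl-tRNA synthetase 172 bases away, fell by 1.37 and 2.14 on the log2 scale in 2iES cells, and *Mrps34* and the nuclease gene *Eme2*, 29 bases away, had log2 changes of -3.20 and -3.10. *Mrpl40* fell by 1.06 while *Hira*, a histone chaperone gene 175 bases away, was at -0.08 and did not pass. *Mrpl30* fell by 0.70 while *Mitd1*, 66 bases away, was higher by 0.79.

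Other genes of the same ribosome were read from a list of proteins with other symbols, assembly factors and ribosomal RNAs. Of 5 further ribosomal proteins, 1 was lower at the late two-cell stage, 5 in the ICM and 3 in 2iES cells, and none was higher. Of all genes, 7.24%, 38.5% and 28.1% were lower at these stages. *Aurkaip1*, which encodes a small-subunit protein, was at 93.2, 103 and 92.4 TPM with DMSO and at 27.1, 23.2 and 33.7 TPM with dTAG13 in late two-cell embryos, and fell by 1.85, 0.96 and 2.45 on the log2 scale at the late two-cell stage, in the ICM and in 2iES cells. Of 24 assembly factors, 4 were lower and 0 higher in late two-cell embryos, 0 and 0 in morulae, 17 and 4 in the ICM and 12 and 2 in 2iES cells. The shares of all genes were 7.24% lower and 1.32% higher in late two-cell embryos and 0.205% and 0.161% in morulae. They were 38.5% and 38.4% in the ICM and 28.1% and 26.5% in 2iES cells.

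*Ngrn*, needed for the large ribosomal RNA, fell by 1.43, 3.63 and 5.39 on the log2 scale at the late two-cell stage, in the ICM and in 2iES cells, from 49.8 and 41.4 TPM to 1.06 and 0.91 TPM in the last. *Mettl17*, an assembly factor of the small subunit, fell by 4.52 in the ICM and 3.57 in 2iES cells, and *Ybey*, an RNase of the small subunit, by 2.17 and 2.85. *Mterf4*, a partner of the methyltransferase *Nsun4*, fell by 1.39 at the late two-cell stage. Rises were seen for *Noa1*, a GTPase of the small subunit's assembly (1.16 in the ICM and 0.58 in 2iES cells), and for *Nsun4* (0.67 in the ICM).

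The mitochondrial ribosomal RNAs were higher with dTAG13 in the ICM and in 2iES cells. *mt-Rnr2*, the large ribosomal RNA, was at 1816 and 1820 TPM with DMSO and at 4232 and 4260 TPM with dTAG13 in the ICM (log2 change 1.18, SE 0.02), and at 415 and 1213 TPM and at 3547 and 3173 TPM in 2iES cells (2.12, SE 0.45, adjusted p = 0.0071 by edgeR). *mt-Rnr1*, the small one, was at 517 and 513 TPM and at 727 and 736 TPM in the ICM (0.47), and at 72.9 and 325 TPM and at 793 and 704 TPM in 2iES cells (1.99). The DMSO libraries of 2iES cells differ from each other by more than the members do, although the groups do not overlap. Neither passed in late two-cell embryos or morulae. The libraries were primed at poly(A) tails, so these levels are those of tailed or internally primed molecules and not of all ribosomal RNA.

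In the DMSO controls most members rose from the late two-cell stage to morulae. In this step 57 members were higher and 4 lower at an adjusted p under 0.05, against 30.4% and 39.8% of all genes, with a median log2 change of 1.25. The largest rises were those of *Mrpl23*, from a mean of 3.81 to 61.7 TPM (log2 change 4.47, SE 0.39), *Mrpl36*, from 14.0 to 207 TPM (4.24), and *Mrps5*, from 4.20 to 57.9 TPM (4.12). The largest falls were those of *Mrps6*, from 391 to 132 TPM (-1.19), *Mrpl41*, from 223 to 84.3 TPM (-1.01), and *Mrps22* (-0.62). Cytosolic ribosomal proteins rose more, with 75 of 76 higher and a median of 2.58. The members' share of the summed TPM of both kinds was thus 14.0% ± 0.74 (SD, n = 3) in late two-cell embryos and 7.39% ± 1.23 (SD, n = 2) in morulae, while their own summed level went from 7790 to 14410 TPM.

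From morulae to the ICM, 35 members were lower and 8 higher (30.3% and 31.4% of all genes), but with library totals as the only scaling 20 were lower and 21 higher, so no common direction can be given for this step. The summed level was 14410 TPM in morulae and 14730 TPM in the ICM. *Mrpl22* (-1.76), *Mrpl33* (-1.41) and *Mrps24* (-1.32) fell most, and *Mrpl37* (1.16), *Mrps27* (1.10) and *Mrps2* (1.02) rose most. From the ICM to 2iES cells, 61 members were higher and 3 lower (31.3% and 33.7% of all genes), or 39 and 7 by library totals. *Mrpl34* (1.61), *Mrps16* (1.57) and *Mrpl49* (1.40) rose most, and *Mrps2* (-0.86), *Mrpl44* (-0.43) and *Mrps5* (-0.34) fell. Without either ICM library, 16 members were lower from morulae to the ICM and 1 from the ICM to 2iES cells, without morula replicates 1 and 2, 17 and 24 were higher in the ICM, and without 2iES replicates 1 and 2, 9 and 6 were lower in 2iES cells. *Mrpl44* and *Mrps5* no longer passed as lower without 1 library.

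**Figure D5:**
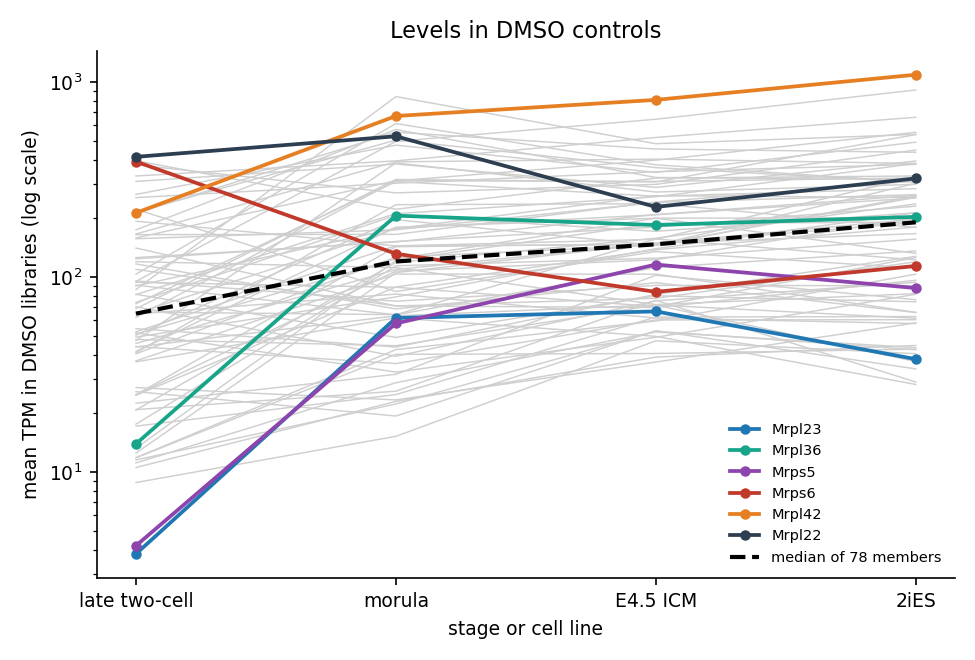
Mean TPM in the DMSO libraries (log scale) of each of the 78 members at 4 stages (grey lines), with 6 members in colour and the median dashed. The median was 65.0 TPM at the late two-cell stage, 120 in morulae, 147 in the ICM and 191 in 2iES cells.

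Within a stage the members' levels per length differed widely, although they build 1 particle. In TPM, the highest and lowest means with DMSO were 414 (*Mrpl22*) and 3.81 (*Mrpl23*) at the late two-cell stage, 842 (*Mrpl33*) and 15.3 (*Mrps27*) in morulae, 810 (*Mrpl42*) and 36.7 (*Mrpl50*) in the ICM, and 1090 (*Mrpl42*) and 28.2 (*Mrpl9*) in 2iES cells. Next in order at the top were *Mrpl40* (395) and *Mrps6* (391) at the late two-cell stage, which do not differ beyond their spread, *Mrpl42* (669) and *Mrps21* (612) in morulae, and *Mrpl17* and *Mrps14* both in the ICM (644 and 520) and in 2iES cells (910 and 660). Near the bottom were *Mrps5* (4.20) and *Mrps27* (8.85), then *Mrps30* (19.4) and *Mrpl19* (22.4), then *Mrps9* (38.9) and *Mrpl1* (40.6), and *Mrps2* (29.0) and *Mrps30* (33.8), in the same order of stages.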

How the data were processed

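RNA-seq had been made from mouse embryos and ES cells with the SMART-Seq v4 kit, and the CUT&RUN and ATAC-seq libraries of the series were not analysed here. The authors trimmed reads, aligned them with STAR to GRCm38 and quantified genes with RSEM, and the deposited tables hold, per library, expected counts (not normalized), TPM and FPKM per gene. Trimming was with Trimmomatic 0.39, per the submitters' processing notes. The deposited TPM and FPKM values are scaled within each library, so they show shares and not RNA per cell.

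Gene names came from GENCODE M21, in which 54487 of the 55385 identifiers have the same version. Groups came from the sample titles. Expected counts were rounded and tested per stage over all genes with edgeR 4.0.16 (quasi-likelihood, TMM scaling, with genes kept at a count of at least 10 in a number of libraries equal to the smallest group, R 4.3.3), and p-values were adjusted over all genes tested by the Benjamini-Hochberg method. A member passed at an adjusted p under 0.05 and was called if it also changed at least 2-fold and if one of its groups averaged 1 FPKM or more. DMSO groups of neighbouring stages, and effects between stages (an interaction term), were tested in fits over the libraries concerned. These fits take 1 spread per gene for all libraries in them. Alternatives were DESeq2 1.42.0, other scalings, no filter, all 18 libraries in 1 fit, a replicate block and each library left out. The tests were checked on simulated counts. RNA of different depth limits low members most, and intervals from counts would cover counting error only.

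The members and lists were chosen with earlier results of these data known. Named members were those called with the largest changes, those lower at 3 stages, those with the highest and lowest levels, those with the largest steps and effect differences, in morulae the 3 with the smallest p, the *Mrps18* relatives, *Mrps30* and *Mrps36*. Others named for a pattern, a role, an overlap or a neighbour were chosen after their values were seen. Same-numbered libraries of both treatments deviated from their group means with correlations of 0.057, 0.13 and 0.094 (late two-cell), 0.019 (morula), -0.044 (ICM) and -0.24 (2iES), and were not treated as pairs.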

Additional observations from a re-analysis of the deposited data

Results flagged for a closer look

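Each value below is a difference between the dTAG13 effects at a pair of stages, in log2 units and as later minus earlier, that passed the interaction test (edgeR, adjusted p under 0.05) and was among the 3 largest of its pair. Groups of 2 or 3 libraries are too small for a test of single outlying libraries.

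From the late two-cell stage to morulae the effect was less negative by 4.56 in *Mrpl33*, 3.28 in *Mrps34* and 3.27 in *Mrps18a*. From the late two-cell stage to the ICM it differed by -2.84 in *Mrps21*, 2.81 in *Mrpl33* and 2.75 in *Mrps18a*, and to 2iES cells by -2.66 in *Mrps21*, -2.535 in *Mrpl27* and -2.49 in *Mrpl53*. From morulae to the ICM it differed by -3.68 in *Mrpl53*, -3.62 in *Mrps21* and -2.545 in *Mrpl27*, and from morulae to 2iES cells by -4.64 in *Mrpl53*, -4.34 in *Mrpl27* and -3.50 in *Mrps21*. From the ICM to 2iES cells it differed by -2.31 in *Mrpl43*, -1.80 in *Mrpl27* and -1.38 in *Mrps34*. Each kept its sign without any 1 library, and stages differ in dose, time of treatment and collection, which cannot be told apart from stage.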

How the results depend on the processing

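The alternatives were read for named results of single members, picked as lower at 3 stages, as largest or for the smallest p. None of these turned its direction. Apart from the fits without 1 library, 758 values kept their side of the threshold, 22 lost it and 13 gained it. Without 1 library 636 kept it, 51 lost it and 3 gained it. Because these results were picked for their size or agreement, their stability does not extend to the other members. The cause of the moved counts below was not tested.

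Counts of members that moved by over 1.5 times were these. At the late two-cell stage the 1 higher member became 0 with all 18 libraries in 1 fit, and 0 to 0 without 1 library. In morulae the 0 lower members became 2 by library totals, 2 with DESeq2, 3 without the filter, 4 with all 18 libraries and 0 to 3 without 1 library, the 0 higher became 2 with all 18 libraries and 0 to 1 without 1 library, and the 0 called lower became 1 by library totals, 1 without the filter and 0 to 1 without 1 library. In the ICM the 9 higher became 2 with all 18 libraries. In 2iES cells the 6 higher became 3 to 9 without 1 library, and the 0 called higher became 1 by library totals, 1 with all 18 libraries and 0 to 1 without 1 library.

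Between DMSO groups, the 4 members lower from the late two-cell stage to morulae became 8 with all 18 libraries. From morulae to the ICM the 35 lower became 20 by library totals, 23 without the filter and 16 to 49 without 1 library, and the 8 higher became 21, 15, 13 with all 18 libraries and 6 to 24. From the ICM to 2iES cells the 3 lower became 7 by library totals, 1 with all 18 libraries and 1 to 9, and the 61 higher became 39 by library totals. Library totals moved the median of all genes by 0.27 and -0.39 in these last steps. As a share of all ribosomal protein levels, the log2 ratios of the summed level were -0.93 and not 0.89 (morula over late two-cell), 0.58 and not 0.03 (ICM over morula) and -0.16 and not 0.25 (2iES over ICM), so the first and last reversed.

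For effect differences without 1 library, the ranges were 5 to 12 lower and 13 to 21 higher (ICM minus late two-cell), 11 to 20 lower (2iES minus late two-cell), 16 to 54 lower and 1 to 2 higher (ICM minus morula), 24 to 47 lower and 0 to 1 higher (2iES minus morula), and 22 to 50 lower and 4 to 16 higher (2iES minus ICM). Library totals gave 2 higher for ICM minus morula and 2 for 2iES minus morula, and all 18 libraries gave 1 higher for the latter and 19 lower and 5 higher for 2iES minus ICM. Scaling moved the median of all genes by -0.13 to -0.20 in morula minus late two-cell, by -0.12 and -0.11 in 2iES minus late two-cell and by 0.12 in ICM minus morula.

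The replicate block gave 34 members lower and 1 higher at the late two-cell stage, where each dTAG13 library correlated best with the DMSO library of its own number, 3 and 0 (1 called lower) in morulae, 60 and 9 in the ICM and 52 and 5 in 2iES cells. The crossed pairing of 2iES libraries, chosen after seeing the data, gave 53 lower and 6 higher.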
